A study of Mus musculus with 8 samples.

Results

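The genes described here make cholesterol and long-chain fatty acids, and a few of them regulate that synthesis or move its product. The list held 30 genes, chosen by name with earlier results of these data known: 22 of the sterol arm and 8 of the fatty acid arm. Each gene was represented by the probe set that carried its symbol alone and had the highest mean log2 signal over all 8 arrays. In this way 29 genes were found among the 18193 genes with such a probe set, 21 in the sterol arm (17 enzymes, and 4 genes of regulation and transport) and 8 in the fatty acid arm. They had 67 probe sets between them, with 9 genes on a single probe set and 20 genes on several. Acat2 was not analysed here.

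The RNA came from NS5 cells, which the labels call neural stem cells of the mouse brain at stage E11.5. Plating was done with FGF2 and EGF for 24 h in all groups, and the cells were then held for 4 h without growth factor. The 4 groups differed in the next 48 h: FGF2 alone, FGF2 with ethanol at 400 mg/dl, TGF-beta1 alone, and TGF-beta1 with ethanol at 400 mg/dl. They keep their label names here, FGF2 and TGF-beta1 without ethanol, Ethanol and FGF2 and Ethanol and TGF-beta1 with it, and each has 2 arrays. Either growth factor was given at 10 ng/ul by the labels, a unit that the signals cannot check. Nothing in the labels ties replicates to separate cultures, and p-values then measure only the spread between these samples. Values are linear, scaled signals of Affymetrix mouse arrays, and fold changes are on the scale log2(signal + 23.66). Precision is limited by the number of arrays.

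Cholesterol is built from acetyl units through the mevalonate pathway, which runs from Hmgcs1 to isoprenoid units, on to squalene, and through a long series of changes to the lanosterol ring. Fatty acids are built from citrate-derived acetyl units by Acly, Acaca and Fasn, then lengthened by Elovl6 and desaturated by the Scd and Fads enzymes. Both arms are transcribed under SREBP factors, encoded by Srebf1 and Srebf2. These are held in the endoplasmic reticulum by Insig proteins while sterol is plentiful and are released to the nucleus when it is scarce. In the brain most cholesterol is made locally, since lipoproteins of the blood hardly cross its barrier.

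The promoter windows below are shown because sterol genes are known to share short control elements near their start. Many of the sterol genes also shared the single arrays on which their signal was highest (TGF-beta1 replicate 1) or lowest (Ethanol and TGF-beta1 replicate 2). Of the 4 sterol genes printed below, Idi1 shared both, Mvd the second, and Hmgcs1 and Insig1 neither. A link between these elements and those arrays was not tested. RefSeq promoter rows (GRCm38.p6) were used for 22 of the 29 genes, and the 250 bases before the start were searched on both strands. The other 7 genes were not searched, whether or not RefSeq holds a row for them, so the counts below leave them out. Capitals mark CCAAT, a box bound by NF-Y, which reads ATTGG where it lies on the other strand. In Hmgcs1 they also mark a match to TCACNCCAC, a loose form of the sterol regulatory element. The first 4 windows are of the sterol arm and the last pair, Fasn and Elovl6, of the fatty acid arm.
Hmgcs1 (chr13:119690101-119690350, + strand): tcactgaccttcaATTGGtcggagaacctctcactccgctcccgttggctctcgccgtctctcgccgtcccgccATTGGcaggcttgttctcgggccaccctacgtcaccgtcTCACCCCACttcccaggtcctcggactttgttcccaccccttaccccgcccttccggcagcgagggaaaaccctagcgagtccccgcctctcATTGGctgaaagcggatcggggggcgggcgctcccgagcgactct
Idi1 (chr13:8885356-8885605, + strand): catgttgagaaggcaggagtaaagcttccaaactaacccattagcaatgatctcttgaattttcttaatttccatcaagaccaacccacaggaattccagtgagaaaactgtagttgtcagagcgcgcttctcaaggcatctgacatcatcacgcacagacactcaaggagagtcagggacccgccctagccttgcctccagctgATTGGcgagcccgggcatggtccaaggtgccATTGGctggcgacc
Mvd (chr8:122443423-122443672, - strand): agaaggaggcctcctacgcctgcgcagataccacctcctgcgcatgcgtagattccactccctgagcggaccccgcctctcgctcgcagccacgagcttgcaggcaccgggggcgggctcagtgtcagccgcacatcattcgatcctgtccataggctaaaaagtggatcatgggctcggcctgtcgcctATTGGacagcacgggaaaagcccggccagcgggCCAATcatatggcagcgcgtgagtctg
Insig1 (chr5:28071162-28071411, + strand): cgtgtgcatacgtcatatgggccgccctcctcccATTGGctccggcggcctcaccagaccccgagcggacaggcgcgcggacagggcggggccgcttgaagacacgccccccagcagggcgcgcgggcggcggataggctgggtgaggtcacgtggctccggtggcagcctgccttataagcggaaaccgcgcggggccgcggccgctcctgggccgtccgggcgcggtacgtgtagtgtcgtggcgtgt
Fasn (chr11:120824548-120824797, - strand): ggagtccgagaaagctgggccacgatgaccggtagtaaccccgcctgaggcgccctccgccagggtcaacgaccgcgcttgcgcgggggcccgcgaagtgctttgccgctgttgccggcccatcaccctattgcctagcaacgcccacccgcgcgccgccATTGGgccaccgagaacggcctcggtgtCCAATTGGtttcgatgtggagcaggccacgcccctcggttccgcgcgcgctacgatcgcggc
Elovl6 (chr3:129532136-129532385, + strand): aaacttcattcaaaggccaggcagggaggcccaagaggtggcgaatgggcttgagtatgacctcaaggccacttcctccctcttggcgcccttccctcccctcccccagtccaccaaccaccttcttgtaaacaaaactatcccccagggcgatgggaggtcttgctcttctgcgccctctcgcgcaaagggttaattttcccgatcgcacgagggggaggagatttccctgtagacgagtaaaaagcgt

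CCAAT was found in 17 of the 17 sterol genes with a row used, against 39.36% of the 14452 array genes with such a row. In the fatty acid arm 1 of 5 genes held it, Fasn, with 3 sites, and the Elovl6 window held none. The last base of the site nearest the start lay between 8 and 212 bases before it in the sterol genes, with a median of 41, and in 14 of the 17 it lay within 100 bases. Insig1 had the most distant one, and 10 of the 17 genes held several sites. The GC box GGGCGG was found in 16 of 17 sterol genes and 2 of 5 fatty acid genes, against 53.41% of array genes. The E-box CACGTG was found in 4 of 17 and 0 of 5, against 8.732%. TCACNCCAC was found in Hmgcs1 alone, against 1.266% of array genes. These matches describe letters in a window of this length and were given no test.

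Before the results, 2 arrays go against their growth factor labels and must be named. Fn1 (fibronectin, a matrix protein that TGF-beta1 is known to raise) had signals of 119.7 and 138.9 in FGF2 and of 3015.5 and 4109.2 in TGF-beta1. Its signal was 6827.7 on replicate 1 of the group labelled Ethanol and FGF2, and 124.2 on replicate 1 of the group labelled Ethanol and TGF-beta1. Their partners read 116.2 and 8225.6. Over 46 genes that separated the growth factors without ethanol, none of them a gene of this list, 82.61% on the first and 4.348% on the second of these arrays lay on the TGF-beta1 side. Both arrays carry the ethanol label, so the average over both growth factors keeps them on the ethanol side, while values within a growth factor rest on the labels in doubt. The ratio of 3' to 5' Gapdh probe sets, a sign of RNA quality, was 3.328 and 3.482 in Ethanol and FGF2 and between 1.635 and 2.204 on the other arrays. The same ratio for Actb overlapped, at 3.567 and 4.204 in Ethanol and FGF2 and between 2.349 and 3.606 on the other arrays. Markers of neural stem cells and radial glia were present on all arrays, with summed signals of 63610 to 119129.6. Most of that sum was Fabp7, Slc1a3 and Vim, while Prom1 read 6.151 to 55.48. Markers of astrocytes (30858.4 to 54807.7) and some of the oligodendrocyte lineage (15894 to 25899.7) were present too, so these sums do not set 1 cell type apart. Most of the oligodendrocyte sum was Olig1, Olig2 and Cnp, while Sox10, Cspg4, Mbp, Mog and Mag read 0.8798 to 70.48. Gfap, of the astrocyte list, read from 61.89 to 8284.1. Markers of microglia (122.4 to 348.6) and endothelium (81.61 to 213) were low. Of the dividing-cell markers, 9 of 9 fell with ethanol in the average of both growth factors, with a median log2 fold change of -3.46. Without both arrays that go against their labels, 0 of all genes were called in this average or within TGF-beta1.

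All 29 genes passed the filter on low signals, so each could be tested. Over the 8 arrays the highest signal of a gene was between 1.342 times (Fads1) and 3.815 times (Tm7sf2) its lowest, with a median of 2.119. Differences were tested with limma across 10916 genes and adjusted by the Benjamini-Hochberg method, with a threshold of 0.05.

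Ethanol, averaged over both growth factors, changed 1 of the 29 genes: Elovl6, which lengthens palmitate and is a known SREBP-1 target, fell. The same call was made for 1.98% of all genes tested, nearly all of them lower (1.80% lower and 0.183% higher), so 1 of 29 is near the background share. In the sterol arm 0 of 21 genes passed, with 4 at an unadjusted p under 0.05 by limma, against 10.8% of all genes, and in the fatty acid arm 1 of 8. Most values were small: the median log2 fold change was -0.19 in the sterol arm and -0.03 in the fatty acid arm, against 0.03 over all genes. Of the 29 genes 23 lay below 0, where 46.0% of all genes did. For 22 of the 29 the 95% interval stayed within 2-fold in either direction, and so did that of 8204 of the 10916 genes.

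Elovl6 (chr3:129532386-129638495, GRCm38.p6) had signals of 1501.7 and 1770.5 in FGF2 and of 798.2 and 966.6 in Ethanol and FGF2. In TGF-beta1 it read 1771 and 1456.5, and in Ethanol and TGF-beta1 926.3 and 542.2. All 4 arrays with ethanol lay below all 4 without, and neither growth factor group without ethanol stood apart from the other. The average log2 fold change was -1.01 ± 0.21 (SE; 95% interval -1.48 to -0.55; adjusted p = 0.0436). In a bulk sample, fewer cells that carry a transcript and less of it per cell cannot be told apart. The ethanol groups also had lower sums of dividing-cell markers: 1646.7 to 2240.9 and 2171.3 to 3951.9, against 11536 to 27720.3 in FGF2 and 34547 to 36530.6 in TGF-beta1. Their part in the Elovl6 result was not tested. Within FGF2 the value was -0.87 ± 0.29 (adjusted p = 0.448) and within TGF-beta1 -1.15 ± 0.29 (adjusted p = 0.149). The difference between the growth factors was -0.28 ± 0.41 (95% interval -1.21 to 0.66).

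The call on Elovl6 was at the edge of the threshold. It held on leaving out Ethanol and TGF-beta1 replicate 1 and was lost on leaving out any other array, with adjusted p from 0.0309 to 0.24 and values from -1.20 to -0.83. Without both arrays that go against their labels the value was -1.13 (adjusted p = 0.0882). A second, dimmer probe set of Elovl6 gave -0.43 ± 0.24, and the mean of all its probe sets gave -0.46 (adjusted p = 0.498).

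**Figure D1:**
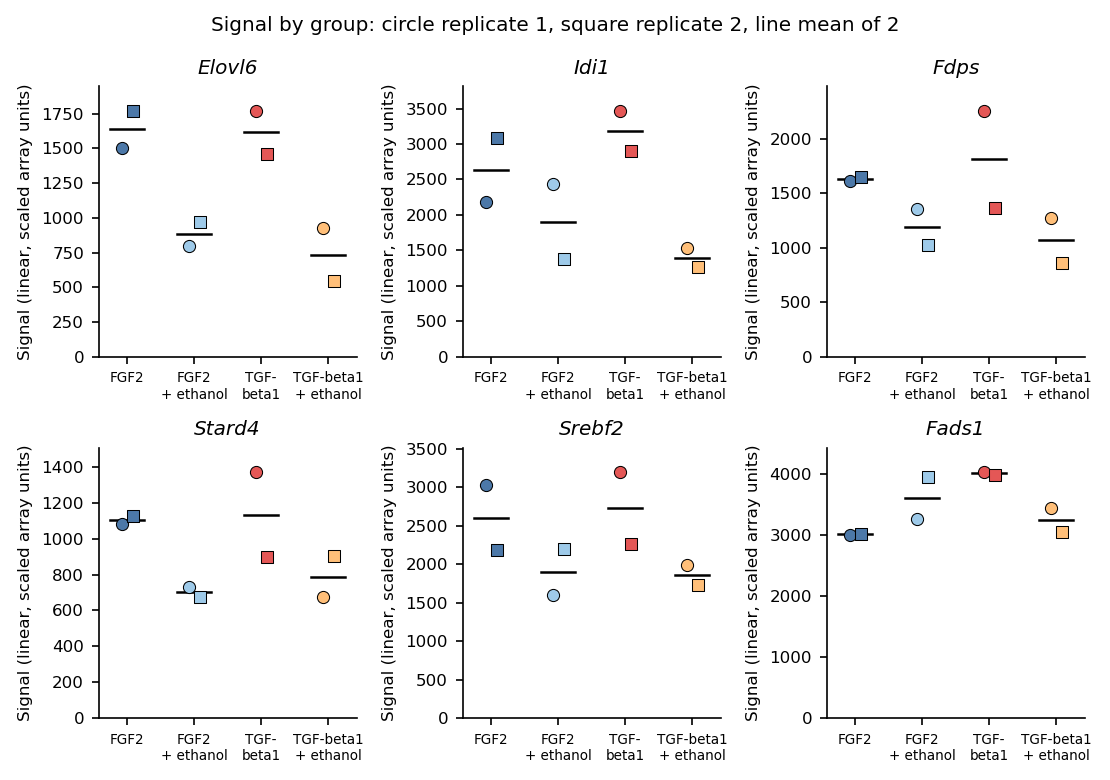
Linear signal (y axis, from 0) of 6 genes in the 4 groups (x axis); circles are replicate 1, squares replicate 2 and bars the mean of 2 arrays. For Elovl6 and Fdps all 4 ethanol arrays sit below the other 4, while Fads1 lies higher with ethanol in FGF2 and lower in TGF-beta1.

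Of the 17 sterol enzymes none passed, and Idi1 and Fdps had the lowest averages. Idi1, which isomerises isopentenyl diphosphate, read 2182.9 and 3082.9 in FGF2, 2436.6 and 1378 in Ethanol and FGF2, 3470.4 and 2904.5 in TGF-beta1, and 1529.7 and 1269.7 in Ethanol and TGF-beta1. The ethanol arrays overlapped the others in FGF2 and lay below them in TGF-beta1. The average was -0.83 ± 0.22 (adjusted p = 0.127). It passed only on leaving out Ethanol and FGF2 replicate 1, the array that goes against its label (-1.04, adjusted p = 0.0452). The second probe set of Idi1 gave -0.39 ± 0.30, so the size depends on the probe set.

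Fdps, which makes farnesyl diphosphate, was the only other gene of the list with all 4 ethanol arrays below all 4 others. That ordering was met by 2 of the 29 genes and by 4.43% of all genes. Its signals were 1616.7 and 1651.4 in FGF2, 1360.1 and 1024.7 in Ethanol and FGF2, 2259 and 1362.3 in TGF-beta1, and 1274.5 and 864.6 in Ethanol and TGF-beta1. The average was -0.59 ± 0.22 (adjusted p = 0.345), with the 2 groups of TGF-beta1 separated by less than the gap between its own replicates without ethanol.

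The genes of regulation and transport were close to their controls or lower. Stard4, which carries cholesterol between membranes, read 1080.7 and 1125.1 in FGF2, 731.4 and 676.8 in Ethanol and FGF2, 1369.7 and 896.8 in TGF-beta1, and 672.7 and 900.3 in Ethanol and TGF-beta1. Its average was -0.56 ± 0.19 (adjusted p = 0.298), with the groups apart in FGF2 and overlapping in TGF-beta1. Srebf2, the SREBP gene of the sterol arm, read 3035.2 and 2183.2, then 1605.8 and 2194.2 with ethanol in FGF2. It read 3199.8 and 2267.9, then 1994.3 and 1727.2 with ethanol in TGF-beta1. The average for Srebf2 was -0.49 ± 0.20 (limma adjusted p = 0.398), and 1 ethanol array reached the lower controls. A second, dimmer probe set of Srebf2 gave -0.13 ± 0.34 in the average, 0.23 ± 0.48 within FGF2 and -0.49 ± 0.48 within TGF-beta1.

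Srebf1, which encodes SREBP-1, varied most between replicates of this group of genes. Its signals were 1728.1 and 3687.3 in FGF2, 1995.8 and 2853.9 in Ethanol and FGF2, 2388.2 and 4271.5 in TGF-beta1, and 1963.5 and 2620.9 in Ethanol and TGF-beta1. With all groups overlapping, the average was -0.29 ± 0.29 (adjusted p = 0.811). Insig1, the sterol-sensing retention protein and itself an SREBP target, was nearly level: 12967.9 and 17884.7 in FGF2, 12217.6 and 17720 in Ethanol and FGF2, 14263.5 and 14925 in TGF-beta1, and 15015.4 and 14333.8 in Ethanol and TGF-beta1. Its average was -0.02 ± 0.19, with a 95% interval of -0.45 to 0.41, which leaves out a 2-fold difference.

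The other fatty acid genes had averages near 0. Fasn, the fatty acid synthase, gave -0.15 ± 0.19 (adjusted p = 0.859). Scd1 gave 0.19 ± 0.19 (adjusted p = 0.803) and Scd2 0.12 ± 0.26 (adjusted p = 0.923); both are desaturases that place the first double bond. The 95% interval of Scd1 (-0.23 to 0.61) and of Fasn (-0.59 to 0.28) left out a 2-fold difference.

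**Figure D2:**
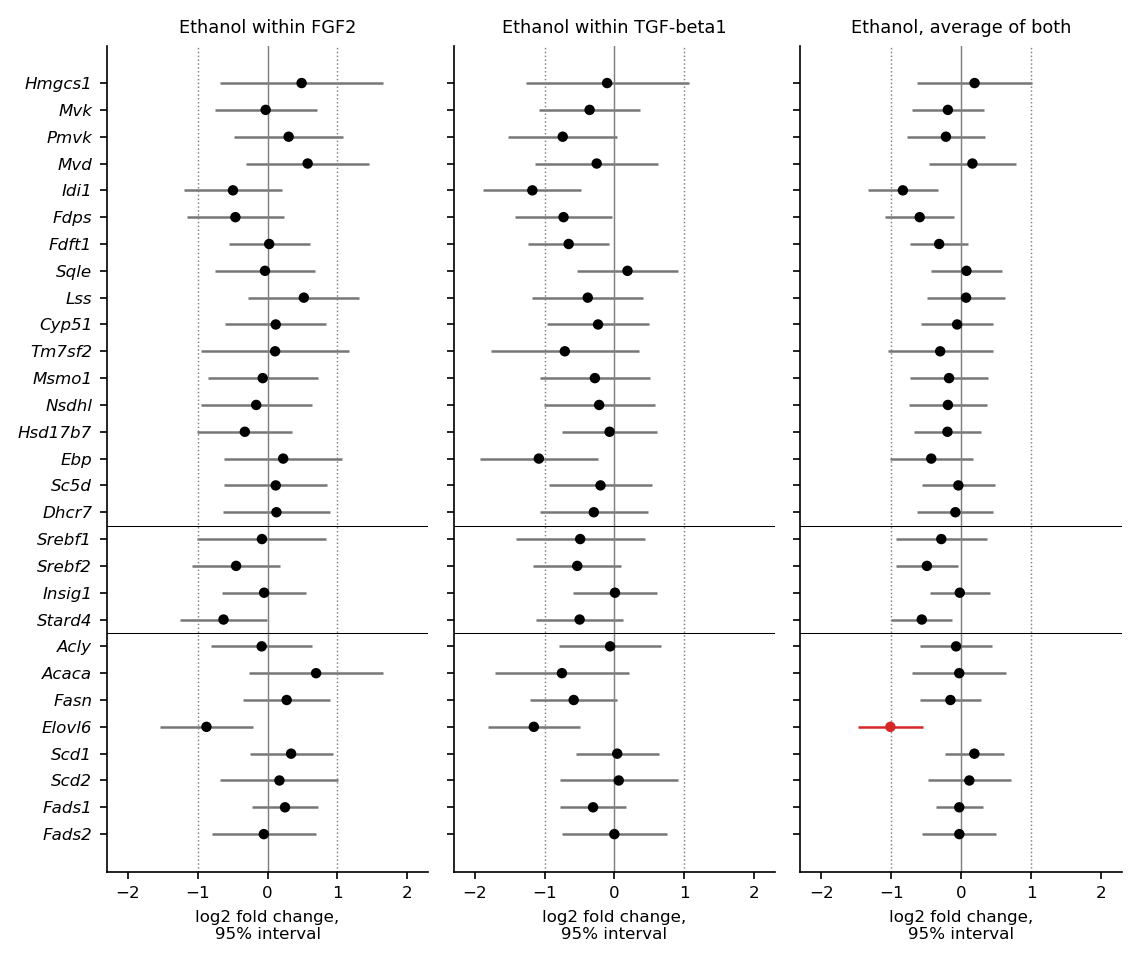
Log2 fold change with ethanol (x axis, point) and its 95% interval (line) for each of the 29 genes (y axis; sterol enzymes, regulation and transport, fatty acid enzymes from top to bottom), within FGF2, within TGF-beta1 and averaged. Red marks an adjusted p under 0.05, met by Elovl6 in the average alone; dotted lines mark 2-fold.

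Within FGF2 alone ethanol changed 0 of the 29 genes (0.00% of all genes), with 2 at an unadjusted p under 0.05 by limma, against 8.31% of all genes. The medians were -0.03 in the sterol arm and 0.21 in the fatty acid arm, against 0.05 over all genes, and 14 of 29 values lay below 0, against 44.5%. The 2 were Elovl6 and Stard4, the latter at -0.63 ± 0.27 (adjusted p = 0.592). Srebf2 (-0.45 ± 0.28), Idi1 (-0.50 ± 0.31) and Fdps (-0.46 ± 0.31) came next in the sterol arm relative to their error, while Mvd (0.57 ± 0.39), Lss (0.52 ± 0.35) and Hmgcs1 (0.49 ± 0.51) lay above 0. On other probe sets Mvd gave -0.43, Lss 0.60 and -0.35, and Hmgcs1 -0.18 to 0.01 on its other bright ones. On the probe sets used, Mvd and Hmgcs1 were highest on Ethanol and FGF2 replicate 1, which goes against its label. Srebf1 (-0.08 ± 0.41) and Insig1 (-0.05 ± 0.27) were near 0. In the fatty acid arm the next values relative to their error were above 0: Acaca 0.69 ± 0.42, Scd1 0.34 ± 0.26 and Fads1 0.25 ± 0.21. Acaca, the carboxylase that commits acetyl units to fatty acids, rested on a single array, since it read 322.9 and 527.1 without ethanol and 1015.2 and 456.8 with it. The 1015.2 is from replicate 1, which goes against its label.

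Within TGF-beta1 ethanol changed 0 of the 29 genes as well, where 1.19% of all genes were called, and 5 had an unadjusted p under 0.05, against 9.48%. Here the sterol arm lay lower as a group: its median was -0.36, with 19 of 21 values below 0, against -0.01 and 50.8% over all genes. The fatty acid arm had a median of -0.18. In the sterol arm the values furthest from 0 relative to their error were those of Idi1 (-1.17 ± 0.31, adjusted p = 0.174), Ebp, Fdft1 and Fdps. Ebp, a sterol isomerase late in the pathway, read 643.3 and 525.8 without ethanol and 276.7 and 248.9 with it, 2 groups that did not overlap (-1.08 ± 0.37, adjusted p = 0.36). Fdft1, the squalene synthase, read 3408.1 and 2296.2 without and 1956.3 and 1599 with ethanol (-0.65 ± 0.26, adjusted p = 0.46). Fdps gave -0.73 ± 0.31 (adjusted p = 0.512), Srebf2 -0.53 ± 0.28, Srebf1 -0.49 ± 0.41 and Insig1 0.01 ± 0.27. In the fatty acid arm Fasn (-0.58 ± 0.27), Acaca (-0.75 ± 0.42) and Fads1 (-0.31 ± 0.21) came after Elovl6, with adjusted p from 0.559 to 0.692.

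That median of the sterol arm within TGF-beta1 moved with single arrays of both groups. Without TGF-beta1 replicate 1 its median was -0.09, and without replicate 2 it was -0.75. Leaving out Ethanol and TGF-beta1 replicate 2 gave -0.18, and leaving out both arrays that go against their labels gave -0.49. Of 5 tested neuron markers 1 rose in the same comparison, where 0.0733% of all genes did: Dcx, a microtubule protein of young neurons (2.70 ± 0.52, limma adjusted p = 0.0485). Dcx read 56.53 and 109.3 without and 1013.4 and 413.1 with ethanol, the 1013.4 on replicate 1, which goes against its label. In FGF2 without ethanol it read 313.6 and 742.2. All 5 tested markers had values above 0. The summed signal of the 8 neuron markers was 5584.8 to 7218.7 without and 9244.8 to 13943.7 with ethanol. Most of that sum was Map2, at 5330.6 and 6588.3 without and 12178.9 and 8107 with ethanol, the 12178.9 again on replicate 1. Rbfox3, which was not tested, went the other way, from 45.68 and 38.9 to 15.99 and 10.55. The part of these markers in the sterol values was not tested.

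TGF-beta1 replicate 1 was the array on which the sterol genes were highest. It held the highest of the 8 signals for 13 of 21 sterol genes, where 13.6% of all genes peaked on it. The 13 were Pmvk, Idi1, Fdps, Fdft1, Lss, Cyp51, Tm7sf2, Msmo1, Nsdhl, Sc5d, Dhcr7, Srebf2 and Stard4, which span the pathway from mevalonate to the last steps. The median deviation of the sterol arm from each gene's mean was 0.53 on this array, and after quantile normalization 0.48, against -0.01 over all genes. It read above replicate 2 of its own group in 16 of 21 sterol genes, and in 14 of the 17 enzymes, against 48.61% of all genes, with a median difference of 0.60.

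Tm7sf2, a reductase of the sterol ring, had the widest gap of this arm as a ratio, at 1259.2 on TGF-beta1 replicate 1 and 522.3 on replicate 2. Its other signals were 748.7 and 490.7 in FGF2, 704.8 and 609.4 in Ethanol and FGF2, and 716.6 and 330.1 in Ethanol and TGF-beta1. Nsdhl, a demethylating dehydrogenase, read 1833.6 and 793.9 in TGF-beta1 and between 989.1 and 1196.8 on the other 6 arrays. Msmo1, which oxidises the methyl groups removed by that step, read 3365.2 and 1740.6 in TGF-beta1 and between 1622.5 and 2442.2 elsewhere. In each of these genes the gap between the TGF-beta1 replicates was wider than any gap between group means.

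The pattern was not that of every sterol gene. Sqle, the squalene epoxidase, was highest on Ethanol and TGF-beta1 replicate 2 at 3419.8 and lowest on FGF2 replicate 1 at 1777.6. Mvk, Hsd17b7 and Insig1 peaked on FGF2 replicate 2, as 13.7% of all genes did, and Hmgcs1, Mvd and Ebp on replicate 1 of Ethanol and FGF2, as 23.9% did. On the low side, Ethanol and TGF-beta1 replicate 2 held the lowest signal for 11 of the 21 sterol genes, all 11 of them enzymes, against 10.5% of all genes, with a median deviation of -0.37. Counted over all 38 sterol probe sets above the filter, TGF-beta1 replicate 1 was highest for 19, against 12.75% of all probe sets, and Ethanol and TGF-beta1 replicate 2 was lowest for 16, against 9.07%.

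**Figure D3:**
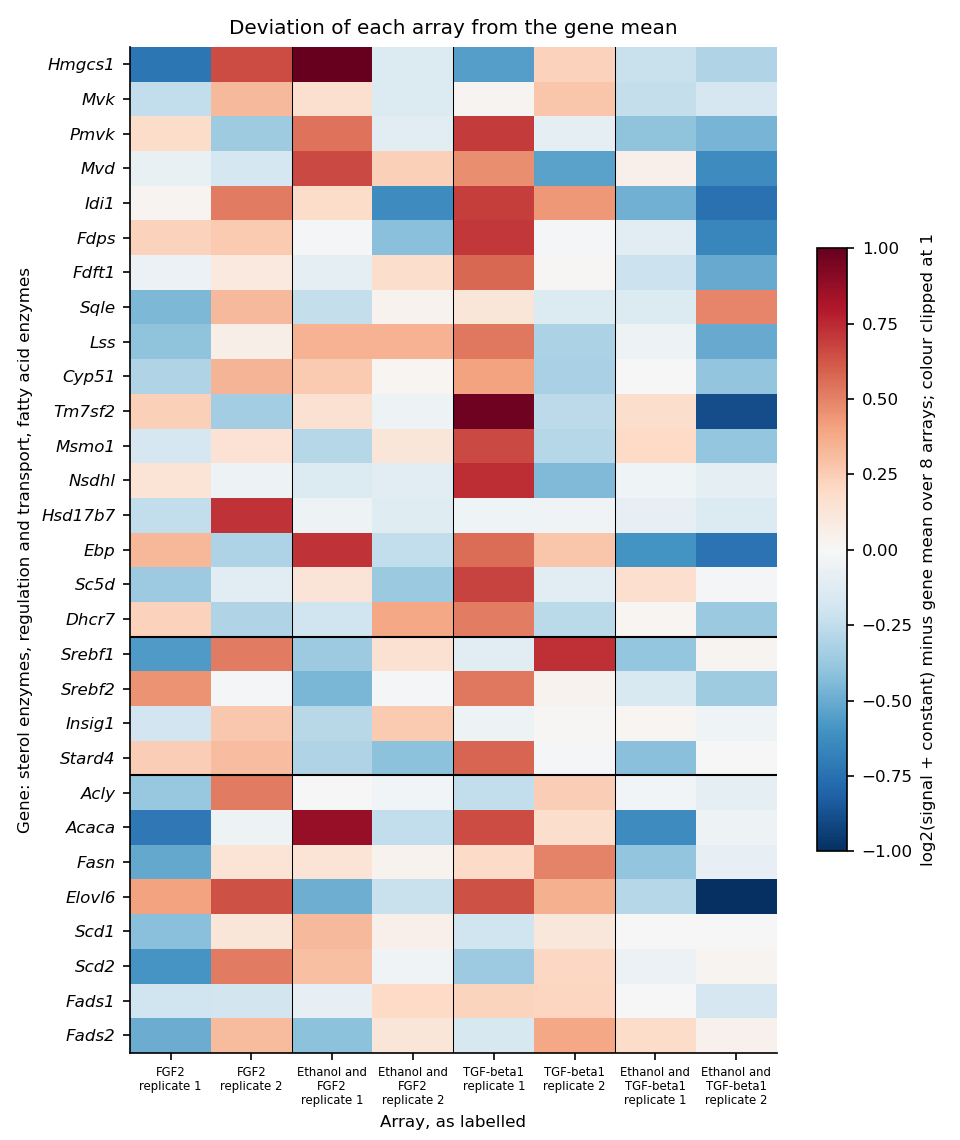
Deviation of log2(signal + 23.66) from the gene's mean over 8 arrays (colour, clipped at 1) for 29 genes (rows; lines part sterol enzymes, regulation and transport, and fatty acid enzymes) on the 8 arrays as labelled (columns). The column of TGF-beta1 replicate 1 is red for most sterol enzymes, and that of Ethanol and TGF-beta1 replicate 2 is blue for most of them.

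The fatty acid arm set another array apart. FGF2 replicate 1 held the lowest signal for 7 of its 8 genes, all but Elovl6, where 13.3% of all genes were lowest on it. Counted over all 18 fatty acid probe sets above the filter, that array was lowest for 11, against 12.43% of all probe sets. Scd2 read 13883.8 there and 29984.1 on FGF2 replicate 2, with 16286.3 to 25779.9 on the other arrays. Fads2, the delta-6 desaturase, read 4413.6 and 7766.4 in FGF2, 4686.1 and 6787.4 in Ethanol and FGF2, 5567 and 8160.4 in TGF-beta1, and 7059.2 and 6427.6 in Ethanol and TGF-beta1. The spread within a growth factor exceeded the difference between groups in both genes. The median deviation of the arm on FGF2 replicate 1 was -0.45, and -0.20 after quantile normalization, which evens the distributions of the arrays. The highest signal of any probe set on that array was 35082.6, against 98319.2 on FGF2 replicate 2. On TGF-beta1 replicate 1 the highest signal was 36699.1, and Acly (15656.4), Scd1 (14364.4) and Scd2 (16286.3) had their second lowest signals there. The median deviation of the arm on that array was 0.02, and 0.17 after quantile normalization. The part of the array scale in these values was not tested.

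**Figure D4:**
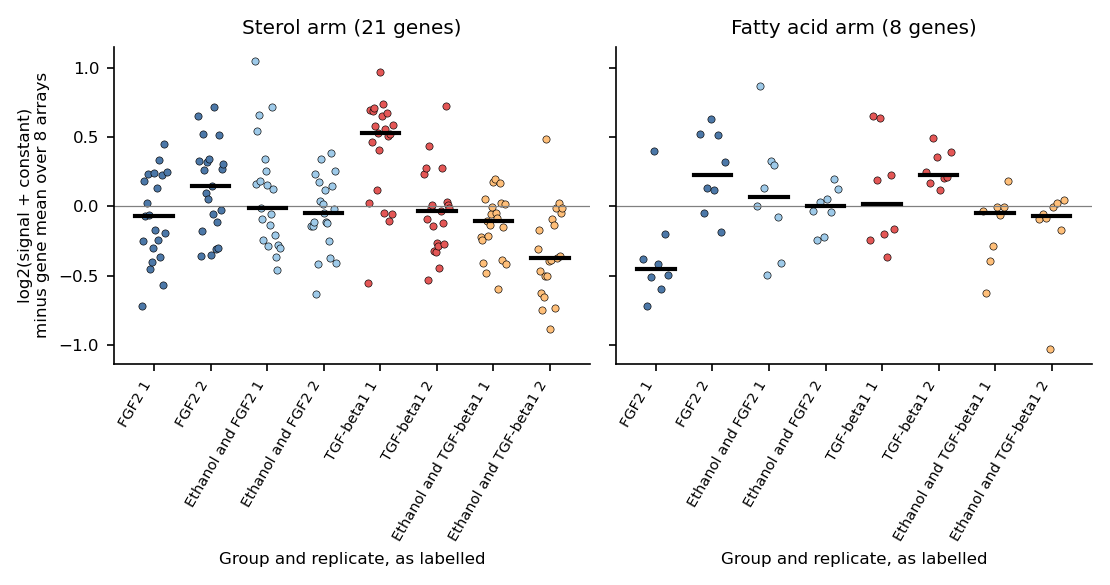
Deviation of each gene from its mean over 8 arrays (y axis, log2; points) on each array (x axis), for the sterol arm (left) and the fatty acid arm (right), with the median as a bar. The sterol median is highest on TGF-beta1 replicate 1 (0.53) and lowest on Ethanol and TGF-beta1 replicate 2 (-0.37); the fatty acid median is lowest on FGF2 replicate 1 (-0.45).

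TGF-beta1 against FGF2 without ethanol changed 0 of the 29 genes (0.00% of all genes), with 0 at an unadjusted p under 0.05 by limma, against 4.95% of all genes. The medians were 0.11 in the sterol arm and 0.15 in the fatty acid arm, against 0.02, and 6 of 29 values lay below 0, against 47.6%. The sterol median became -0.15 without TGF-beta1 replicate 1 and 0.46 without replicate 2, so its sign depended on that array. The largest values relative to their error in the sterol arm were those of Sc5d (0.52 ± 0.33), Pmvk (0.39 ± 0.35), Ebp (0.40 ± 0.37) and Fdft1 (0.27 ± 0.26). Srebf1 stood at 0.34 ± 0.41, Srebf2 at 0.06 ± 0.28 and Insig1 at -0.06 ± 0.27. In the fatty acid arm they were Acaca (0.79 ± 0.42), Fasn (0.53 ± 0.27), Fads1 (0.41 ± 0.21) and Fads2 (0.20 ± 0.33), all with an adjusted p of 0.98 or more.

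With ethanol in both groups, TGF-beta1 against FGF2 also changed 0 of 29 genes (0.00% of all genes), and 1 had an unadjusted p under 0.05 by limma, against 2.63%. That was Ebp, which read 723.4 and 358.3 in Ethanol and FGF2 and 276.7 and 248.9 in Ethanol and TGF-beta1 (-0.90 ± 0.37, adjusted p = 0.982). The medians were -0.22 and -0.17, against -0.04, with 24 of 29 values below 0, against 54.3%. Mvd (-0.74 ± 0.39), Pmvk (-0.65 ± 0.35) and Lss (-0.62 ± 0.35) followed, while Srebf1 stood at -0.07 ± 0.41, Srebf2 at -0.02 ± 0.28 and Insig1 at -0.0043 ± 0.27. Acaca (-0.65 ± 0.42), Fasn (-0.33 ± 0.27), Elovl6 (-0.30 ± 0.29) and Fads2 (0.26 ± 0.33) led the fatty acid arm. Both groups of this comparison hold an array that goes against its label, so it compares the groups as labelled and no more.

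The ethanol effect itself differed between the growth factors in 0 of 29 genes (0.00% of all genes), with 2 at an unadjusted p under 0.05 by limma, against 4.42%. The medians of the difference, TGF-beta1 minus FGF2, were -0.35 and -0.29, against -0.07 over all genes, and 23 of 29 lay below 0, against 55.1%. The 2 genes were Acaca (-1.44 ± 0.60) and Ebp (-1.30 ± 0.53), both with an adjusted p of 0.831. Pmvk (-1.04 ± 0.49), Lss (-0.90 ± 0.50), Fdft1 (-0.68 ± 0.36) and Fasn (-0.86 ± 0.39) came next, and Scd1 gave -0.30 ± 0.37. Srebf1 (-0.41 ± 0.58), Srebf2 (-0.08 ± 0.39) and Insig1 (0.06 ± 0.38) had intervals that spanned 0. On the probe sets used, 1 gene of the list had its ethanol arrays on opposite sides of their controls in the 2 growth factors. It was Fads1 (-0.55 ± 0.29), and 5.24% of all genes met that ordering. The precision was low here: the 95% interval stayed within 2-fold for 2 of the 29 genes.

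Probe sets of the same gene differed in some cases. Acly, which splits citrate into acetyl units, read 14239.9 and 26564.7 in FGF2 on the probe set used, 15656.4 and 22002.1 in TGF-beta1, and 17429.2 to 18545.4 on the 4 ethanol arrays, which lay between them. Its second bright probe set read 10189.5 and 10422.9 in FGF2, 7334.6 and 7064.7 in Ethanol and FGF2, 8434.5 and 8510.4 in TGF-beta1, and 6998.9 and 6684.7 in Ethanol and TGF-beta1. On the latter every ethanol array lay below every other array and the replicates were close, with an average of -0.41 ± 0.15 that did not pass (adjusted p = 0.333).

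Hmgcs1, the enzyme that opens the mevalonate pathway, ranged from 13772.8 to 46933.2 on the probe set used, highest on Ethanol and FGF2 replicate 1. Its 3 other bright probe sets ranged from 9964.1 to 16180.1, from 11741.3 to 19148.1 and from 6374.6 to 9102.5, and on each of them that array was among the lower ones. The averages of the 4 probe sets ran from -0.10 to 0.19, so none placed Hmgcs1 far from its controls. Mvd, which makes isopentenyl diphosphate, gave 0.16 ± 0.27 on the probe set used and -0.69 on its dimmer one (adjusted p = 0.308). Scd2 gave 0.12 and 0.11 on its 2 brighter probe sets and 0.67 on the third. With every probe set tested as a row of its own, 0 of the 56 tested probe sets of these genes passed in any of the 6 comparisons, and the probe set of Elovl6 had an adjusted p of 0.0521.

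**Figure D5:**
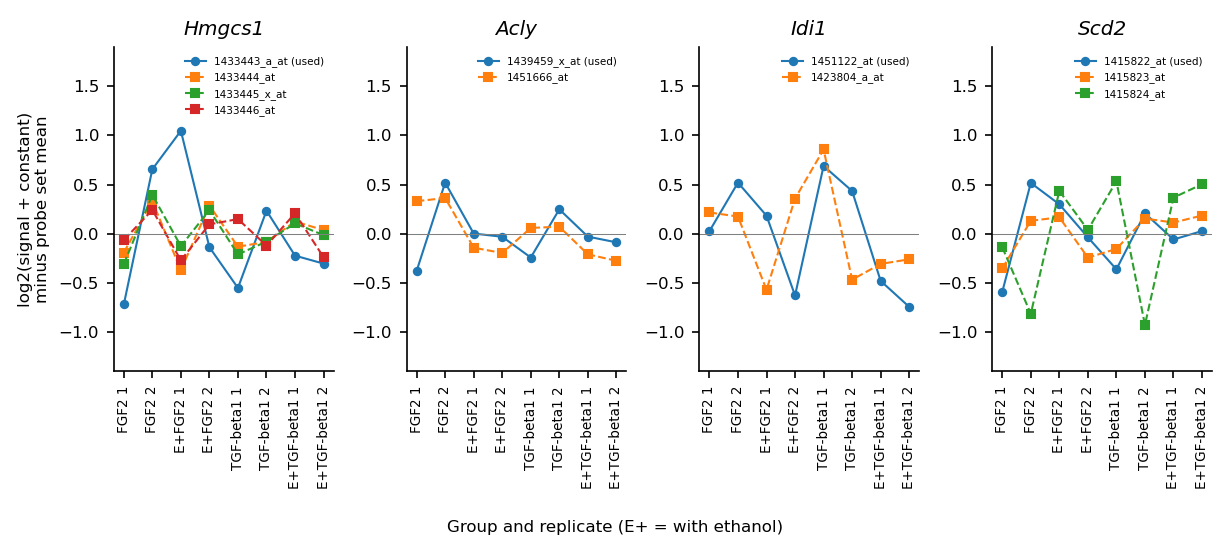
Deviation of log2(signal + 23.66) from the probe set's own mean (y axis) on the 8 arrays (x axis) for the probe sets of Hmgcs1, Acly, Idi1 and Scd2 with a mean signal above 1000; the solid blue line is the probe set used. On Acly the dashed probe set is low on all 4 ethanol arrays and the one used is not; on Hmgcs1 the probe set used is far more variable than the others.

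Other genes of the pathway were taken from lists of names. Of 12 tested genes of sterol sensing and traffic, 1 rose with ethanol in the average, at 0.183% of all genes called higher. It was Lrp1, a receptor that takes up apolipoprotein E particles, with signals of 624.3 and 787.8 in FGF2, 2574.7 and 1716.9 in Ethanol and FGF2, 714.1 and 1141.5 in TGF-beta1, and 1623 and 2059.5 in Ethanol and TGF-beta1. All 4 ethanol arrays lay above all 4 others, as in 2.99% of all genes (1.28 ± 0.22, adjusted p = 0.0191). The call was lost on leaving out replicate 1 of FGF2, of TGF-beta1 or of Ethanol and FGF2, or replicate 2 of Ethanol and TGF-beta1 (adjusted p up to 0.106), without both arrays that go against their labels (1.22, adjusted p = 0.147), and with the mean of its probe sets (1.00, adjusted p = 0.0913). None of 12 other SREBP targets, 5 genes of LXR signalling and efflux, or 14 genes of fatty acid oxidation passed in any of the 6 comparisons. Their medians in the average were -0.02, 0.09 and 0.11, and 0.17 in sterol sensing and traffic.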

How the data were processed

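RNA of 8 samples in 4 groups of 2 was measured on Affymetrix mouse arrays. The deposited values are linear signal intensities, with MAS5 and GCOS named in the submitters' processing notes (versions not given in the sources used here). The 2% trimmed mean was 500 on every array, so each had been scaled to 1 target. Of 45101 probe sets, 34945 had a single symbol in the platform annotation, 932 had several and 9160 had none; the 64 controls and all but the first kind were left out.

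To each signal 23.66 was added (the 25th percentile over all values) before log2 was taken. Genes above the 40th percentile of the mean (6.402) were tested, 10916 in all, with limma 3.58.1 in R 4.3.3: a model of 4 group means over all arrays, 4 residual degrees of freedom, empirical Bayes with a trend, two-sided, Benjamini-Hochberg adjustment over all genes in each of 6 comparisons. The scripts were tested on simulated data. The median SE over genes of a difference between groups was 0.32. Fold, SE and p were given for genes past the threshold, for Srebf1, Srebf2 and Insig1, and for the 4 genes of each arm with the largest moderated statistic. Tm7sf2, Nsdhl, Msmo1, Sqle, Scd2, Fads2, Acly, Hmgcs1 and Mvd were singled out for more detail after their values were seen. The genes and lists were chosen with earlier results of these data known. Alternatives covered the constant, filter, normalization, probe set choice, trend, replicate block and omitted arrays.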

Additional observations from a re-analysis of the deposited data

Results flagged for a closer look

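Fads1, the delta-5 desaturase of polyunsaturated fatty acids, stood out because its ethanol arrays lay on opposite sides of their controls in the 2 growth factors. Its signals were 2999.3 and 3020.7 in FGF2 and 3253 and 3944.3 in Ethanol and FGF2, so both ethanol arrays were higher (log2 fold change 0.25 ± 0.21, SE). They were 4026.1 and 3985.9 in TGF-beta1 and 3433.9 and 3050.7 in Ethanol and TGF-beta1, so both were lower (-0.31 ± 0.21). The difference between the effects, tested with limma, was -0.55 ± 0.29 (adjusted p = 0.831, unadjusted p = 0.092) and did not pass. This ordering was met by 1 of the 29 genes and by 5.24% of all genes tested. Each growth factor holds 1 ethanol array that goes against its label. The second, dimmer probe set of Fads1 had the opposite signs: -0.13 ± 0.33 within FGF2 and 0.19 ± 0.33 within TGF-beta1. Its difference was 0.33 ± 0.47, so the pattern depends on the probe set.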

How the results depend on the processing

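The count of genes of the list called for ethanol in the average, 1 as reported, was 0 under a stricter signal filter, quantile normalization, the mean of all probe sets, empirical Bayes without trend, the replicate block, omission of both arrays that go against their labels, and every probe set as its own row, the last chosen after seeing the data. With 1 array left out it ranged from 0 to 1. It stayed at 1 with constants of 10 and 100, with no filter and with ethanol as the only term. In the other 5 comparisons it was 0 under every alternative run. The sign changed under at least 1 alternative for 24 of the 65 fold changes of named genes, 0 of them past the threshold as reported, and for 5 of the 12 arm medians. The cause of each change was not tested.

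Replicate numbers did not pair the samples across all groups: deviations of same-numbered arrays correlated from -0.44 to 0.47 over the 6 pairs of groups. The 0.47 was between FGF2 and TGF-beta1. Their replicate 1 arrays had median signals of 50.66 and 50.62, against 86.49 and 80.68 on replicate 2. The -0.44 was between the 2 ethanol groups, each with 1 array that goes against its label. An effect shared by replicates of the groups without ethanol was not tested. With the replicate block Elovl6 kept -1.01 (adjusted p = 0.0901), and the count of genes called within TGF-beta1 went from 130 to 0. That count was 75 with the stricter filter, 85 with the mean of probe sets, 0 without both arrays in doubt and 0 to 159 with 1 array left out. Over all genes, the average gave 216 calls, 119 with the stricter filter, 0 without both arrays in doubt and 93 to 227 with 1 array left out. Within FGF2 the 0 calls became 22 with no filter, 3 with the stricter filter, 52 with quantile normalization and up to 76 with 1 array left out. TGF-beta1 against FGF2 gave 5 calls without and 2 with ethanol once both arrays in doubt were omitted. An array left alone in its group was assumed to vary like the others. With 2 arrays a group, the 95% interval within a growth factor reached a median of 0.73 to either side over these genes. That interval is not adjusted for the number of genes, so even larger differences could fail to pass. Within TGF-beta1, Idi1 at -1.17 and Elovl6 at -1.15 did not pass (limma adjusted p = 0.174 and 0.149).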

Other observations

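The values of 4 genes outside the list are given here; none passed the threshold with ethanol, and they were picked after their values were seen. Cpt1a, which carries fatty acids into mitochondria for oxidation, read 2510.7 and 2112 in FGF2, 3553.4 and 5153.2 in Ethanol and FGF2, 2133.9 and 1507.9 in TGF-beta1, and 3098.8 and 4253.2 in Ethanol and TGF-beta1 (average 0.95 ± 0.20, limma adjusted p = 0.0559). Its 4 ethanol arrays lay above all 4 others. Tmem97, a sterol-regulated membrane protein, read 562.6 and 617.6 in FGF2, 583.6 and 239.4 in Ethanol and FGF2, 1346.7 and 902 in TGF-beta1, and 211.3 and 361.3 in Ethanol and TGF-beta1 (average -1.26 ± 0.30, limma adjusted p = 0.0891). Vldlr, a lipoprotein receptor, gave 1.04 ± 0.29 (limma adjusted p = 0.167), with 6949.8 on replicate 1 of Ethanol and FGF2, which goes against its label, and 1368.5 to 3465.7 on the others. Abca1, the cholesterol exporter, gave 0.97 ± 0.31 (limma adjusted p = 0.249), and its 4 ethanol arrays overlapped the TGF-beta1 group.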
